A study of Mus musculus with 81 samples.

Results

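The G1 cyclins and their kinases were followed as 10 genes, Ccnd1, Ccnd2, Ccnd3, Cdk4, Cdk6, Ccne1, Ccne2, Cdk2, E2f1 and E2f2, across mouse thymic lymphomas and normal thymus. They were chosen by symbol, 10 of the 51826 genes in the deposited table, and all 10 were found and passed the filter on low counts. D-type cyclins (cyclins D1, D2 and D3) join the kinases CDK4 and CDK6 early in G1 in response to growth signals, and the complexes phosphorylate the retinoblastoma protein. E2F transcription factors are thereby released and switch on genes for DNA replication, among them the E-type cyclins, which join CDK2 and carry the cell into S phase. In the thymus, cyclin D3 is known for its role in the expansion of immature T cells, and cyclin D2 and CDK6 are well-known genes of T-cell leukaemia.

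RNA sequencing covered 81 libraries from 40 mice of a C57BL/6 x 129S4Sv/Jae background. Every mouse, controls included, carried a Plk4 transgene at Col1a1, the rtTA activator at Rosa and a centrin-GFP reporter at Rosa. The Plk4 kinase drives the duplication of centrioles, and its excess disturbs chromosome segregation, the aneuploidy whose effect on tumours the study addresses. The groups were normal thymus of untreated p53+/+ mice (8 mice, 8 libraries), lymphomas of untreated p53-/- mice (10 mice, 23 libraries), lymphomas of p53-/- mice given doxycycline (9 mice, 18 libraries) and lymphomas of p53+/- mice given doxycycline (12 mice, 31 libraries). The 3 lymphoma groups are called untreated null, treated null and treated heterozygous lymphomas. Doxycycline was given for 2 weeks from 30 days of age. A single untreated p53+/- normal thymus (mouse 819) entered no test. In 13 mice several biopsies of the tumour were sequenced, 54 libraries in all. Age at sampling is not given in the sources used here. No normal thymus came from a p53-/- or a treated mouse, so tissue and genotype change together in every comparison with normal thymus, and treatment too for the treated groups, and these cannot be told apart.

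Library totals ran from 1.03 to 26.87 M expected counts (M for counts in units of 10 to the power 6), and totals per mouse from 5.01 to 98.59 M. Levels are CPM, a gene's counts per 1 M counts of its library after TMM scaling, with biopsies of a mouse summed, and p-values measure the spread between mice. Whole pieces of tissue were sequenced, so a lower level from fewer cells of a type and one from less RNA per cell cannot be told apart. The summed level of 8 T-lineage genes was 1042 to 6890 CPM in normal thymus, 198 to 5789 CPM in untreated null lymphomas, 3318 to 7123 CPM in treated null lymphomas and 1765 to 5681 CPM in treated heterozygous lymphomas. The lowest value, 198 CPM, was that of mouse 881, an untreated null animal labelled with thymic lymphoma, whose tumour had the T-cell gene Cd3e at 1.70 CPM and the B-cell gene Cd79a at 814 CPM. Among the normal thymuses, mouse 387 stood apart, with 8895 CPM over 5 fat genes and 1170 CPM over 5 B-lineage genes. Its T-lineage sum, 1042 CPM, was the lowest of them, and the next lowest was 4765 CPM. Fat genes summed to 619 to 8895 CPM in normal thymus and 35 to 184 CPM in the lymphomas. By the edgeR test described below, 5 of 5 were lower in each lymphoma group. Of all genes 17.5% were lower in untreated null, 26.7% in treated null and 25.3% in treated heterozygous lymphomas. Thymic epithelium genes (6) summed to 101 to 1614 CPM in normal thymus and 2.08 to 326 CPM in lymphomas, with Psmb11 and Foxn1 at 0 in at least 1 mouse of each lymphoma group. The 101 CPM was that of mouse 387, and the next lowest normal thymus was at 943 CPM. The part of these other cells in the differences from normal thymus was not tested. The recorded sex did not match the sex-linked genes in 3 lymphoma mice, 328, 869 and 870.

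Against normal thymus, E-type cyclins, Cdk2, Cdk4, Cdk6 and E2f1 were higher in all 3 lymphoma groups. By edgeR's quasi-likelihood test with Benjamini-Hochberg adjustment over 17843 genes and a threshold of 0.05, 6 of the 10 genes were higher and 0 lower in untreated null lymphomas, where 40.7% of all genes tested were called (23.2% higher and 17.5% lower). In treated null lymphomas 7 of 10 were higher and 0 lower, beside 52.1% of all genes (25.4% higher and 26.7% lower). In treated heterozygous lymphomas 6 of 10 were higher and 1 lower, beside 50.9% of all genes (25.6% higher and 25.3% lower). The median log2 fold change over the 10 genes was 0.98, 0.93 and 0.91 in these groups, and over all genes tested it was 0.08, -0.04 and -0.00. The 3 comparisons share their 8 normal thymuses.

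**Figure D1:**
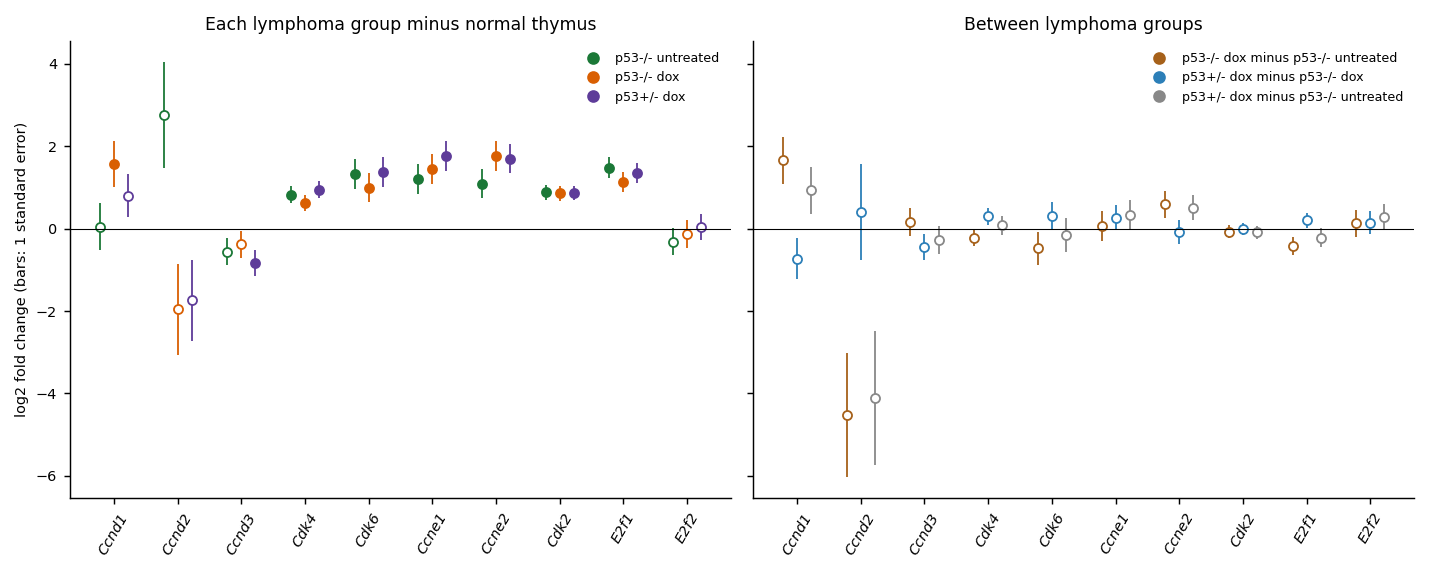
Log2 fold change of each of the 10 genes by edgeR, in each lymphoma group against normal thymus (left) and between lymphoma groups (right). Bars are 1 standard error and filled points have an adjusted p under 0.05. On the left Cdk4, Cdk6, Ccne1, Ccne2, Cdk2 and E2f1 are filled and above 0 in each group, the bars of Ccnd2 are the longest, and on the right no point is filled.

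Cyclin D1 (Ccnd1, chromosome 7, 144929931 to 144939925 in build GRCm38) was higher in lymphomas of treated null mice. Its level (lowest, median, highest) was 10, 20.2 and 77.8 CPM in normal thymus and 13.9, 81.1 and 162 CPM in treated null lymphomas. It was 2.81, 29 and 72.1 CPM in untreated null lymphomas and 4.47, 39.4 and 156 CPM in treated heterozygous lymphomas. All groups overlapped, and 5 of 9 treated null lymphomas, 0 of 10 untreated and 3 of 12 treated heterozygous lymphomas lay above every normal thymus. The highest normal thymus was mouse 387, and without it 21 of the 31 lymphomas lay above the normal range in place of 8. The log2 fold change in treated null lymphomas was 1.57 (SE 0.56, adjusted p = 0.0183, edgeR), and 2.25 without mouse 387. In treated heterozygous lymphomas it was 0.80 (SE 0.52, adjusted p = 0.197, edgeR), but without mouse 387 it was 1.52 with an adjusted p of 0.0197 by edgeR. In untreated null lymphomas it was 0.05 (SE 0.57, adjusted p = 0.958, edgeR).

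Cyclin D2 (Ccnd2, chromosome 6, 127125162 to 127152193) had the widest spread of the 10 genes. In normal thymus its level was 53.7, 73.7 and 186 CPM (lowest, median, highest). In treated null lymphomas it was 3.16, 10.7 and 120 CPM, and in treated heterozygous lymphomas 3.51, 13.7 and 94.3 CPM. Most treated lymphomas were low, with 8 of 9 and 10 of 12 below every normal thymus. The 5 B-lineage genes, of which 5 were lower in both treated groups, summed to 68.6 to 1170 CPM in normal thymus, 6.01 to 54.9 CPM in treated null and 3.10 to 93.5 CPM in treated heterozygous lymphomas. Of 4 endothelial genes 2 and 3 were lower in the treated groups. Of all genes 26.7% were lower in treated null and 25.3% in treated heterozygous lymphomas. Endothelial sums were 128 to 511 CPM in normal thymus, 63.3 to 248 CPM in treated null and 82.2 to 250 CPM in treated heterozygous lymphomas. The 511 CPM was that of mouse 387, and the next highest normal thymus was at 216 CPM. The part of either cell type in Ccnd2 was not tested. In untreated null lymphomas the level was 0.703, 13.7 and 6878 CPM. There 7 of 10 lay below every normal thymus and 3 above, namely mouse 120 at 6878 CPM, mouse 202 at 611 CPM and mouse 881 at 295 CPM, the tumour with 2726 CPM over 5 B-lineage genes.

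The standard deviation of Ccnd2 over the 31 lymphomas was 2.52 on the log2 CPM scale, against 0.58 over the normal thymuses, and 98.4% of 14991 genes had a smaller one. No group difference passed the threshold in edgeR. The log2 fold change was -1.96 (SE 1.11, adjusted p = 0.135, edgeR) in treated null and -1.74 (SE 0.99, adjusted p = 0.144, edgeR) in treated heterozygous lymphomas. The first was -2.64 without mouse 663, and the second -3.01 over single-biopsy tumours. Both contrasts had an adjusted p under 0.05 when only the pair of groups compared was fitted, at 0.00976 and 0.00659 (edgeR), and the cause of this change was not tested. By exact permutation over mice of the mean log2 CPM, unadjusted, the difference was -2.40 (p = 0.00206) in treated null and -2.21 (p = 0.00119) in treated heterozygous lymphomas. In untreated null lymphomas the edgeR estimate and the mean of log2 values differed in sign. The edgeR log2 fold change was 2.77 (SE 1.29, adjusted p = 0.0836) and 0.01 without mouse 120 (2.86 without mouse 881), whereas the mean log2 CPM was 5.05 against 6.31 in normal thymus, a difference of -1.26 (exact permutation p = 0.390).

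**Figure D2:**
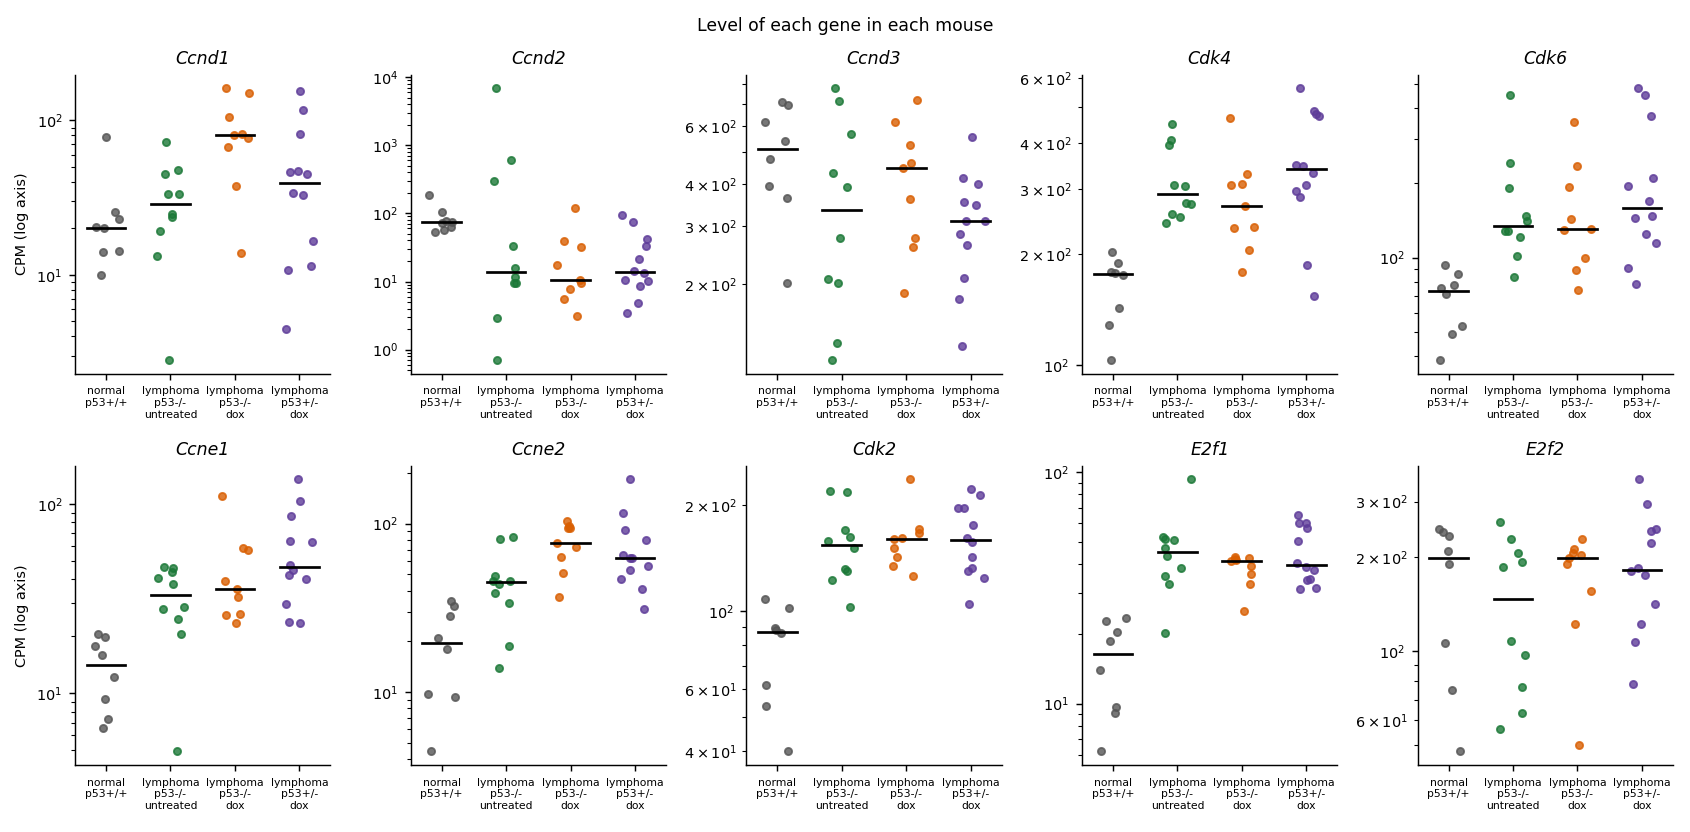
Level of each of the 10 genes (CPM, log axis) in every mouse of the normal thymus and the 3 lymphoma groups, with the group median as a line. Ccnd2 spans 0.703 to 6878 CPM in untreated null lymphomas, while most lymphomas lie above the normal range for Cdk4, Cdk6, Ccne1, Ccne2, Cdk2 and E2f1.

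The genes beside Ccnd2 were then examined in the 3 high tumours, a check chosen after the levels were seen. In mouse 120, Ccnd2 was 6.43 higher than the normal mean on the log2 CPM scale. The 4 nearest genes on one side were high there too, with Rad51ap1, a DNA repair gene, 4.53 above normal, Tigar, a regulator of glycolysis, 3.82 above, Ndufa9, a respiratory chain subunit, 3.18 above and D6Wsu163e 2.92 above. Parp11, the nearest gene tested on the other side, was -1.23 relative to normal, and Cracr2a, the next gene on that side, was 0.87. Gm43126, at 4.82 above normal, overlaps Ccnd2, and since strandedness of the counting is not given its reads and those of Ccnd2 cannot be told apart. In mice 202 and 881 Rad51ap1 was at 1.74 and 1.35 and Tigar at 1.66 and 0.94. Rad51ap1 was as high, from 1.43 to 2.69, in mice 490, 862, 884, 899 and 903, whose Ccnd2 was not above the normal range, and Tigar there was from -0.28 to 1.02. These mice are those with the high Cdk6 described below, and the other lymphomas are not shown. The median of the 9 neighbours within 1 Mb was 2.92 in mouse 120 (1.90 over the 8 that do not overlap Ccnd2), beside -0.30 over chromosome 6. Ntf3, a growth factor gene farther out on the side of Rad51ap1, was -1.32. In mouse 202 Ccnd2 was 2.94 above normal and its neighbours' median was 0.48. In mouse 881 these values were 1.89 and 0.04.

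**Figure D3:**
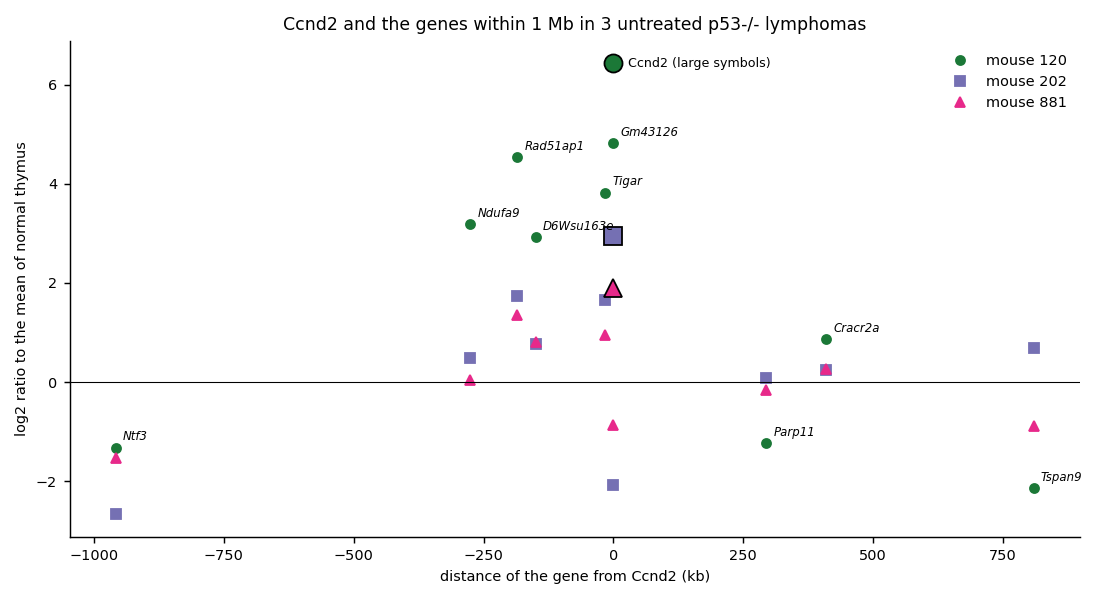
Log2 CPM relative to the normal mean for genes within 1 Mb of Ccnd2, by distance from it, in the 3 lymphomas with the highest Ccnd2. Large symbols are Ccnd2. In mouse 120 the 4 nearest genes on one side of Ccnd2 are raised (Rad51ap1 at 4.53), and on the other side Parp11 is at -1.23 and Cracr2a at 0.87.

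Cyclin D3 (Ccnd3, chromosome 17, 47505051 to 47599691) was the most abundant D-type cyclin per kilobase of exon in nearly all tissues. Its level was 202, 509 and 709 CPM in normal thymus (lowest, median, highest), 118, 334 and 780 CPM in untreated null lymphomas, 188, 448 and 716 CPM in treated null lymphomas and 130, 310 and 557 CPM in treated heterozygous lymphomas. These ranges overlapped throughout. It fell in treated heterozygous lymphomas, by 0.83 on the log2 scale (SE 0.31, adjusted p = 0.0233, edgeR). That call was lost without any 1 of 3 mice, with adjusted p (edgeR) of 0.0579 without mouse 266, 0.0635 without mouse 615 and 0.0505 without mouse 980. Over single-biopsy tumours the call was lost as well, at -0.68 (adjusted p = 0.138, edgeR). In untreated and treated null lymphomas the log2 fold changes were -0.56 (SE 0.33, adjusted p = 0.174, edgeR) and -0.38 (SE 0.33, adjusted p = 0.332, edgeR).

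Per kilobase of exon, Ccnd3 made up a median of 84.9% of the D-type cyclin level in normal thymus, Ccnd2 9.38% and Ccnd1 6.07%. In treated null lymphomas the medians were 73.5% for Ccnd3, 1.77% for Ccnd2 and 24.4% for Ccnd1. They were 71.1%, 2.65% and 18% in treated heterozygous and 76.5%, 3.69% and 8.62% in untreated null lymphomas. Ccnd3 was the leading D-type cyclin in 8 of 8 normal thymuses, 8 of 10 untreated null, 8 of 9 treated null and 12 of 12 treated heterozygous lymphomas. The exceptions were mice 120 and 202, led by Ccnd2, and mouse 663, led by Ccnd1. The length used was that of all annotated exons of a gene together, not of 1 transcript. In CPM, mouse 663 had Ccnd3 at 188 and Ccnd1 at 151. In mouse 120 Ccnd2 reached 97.8% of the D-type cyclin level. The median summed level was 67.5 CPM per kilobase in normal thymus and 67.2, 66.2 and 49.7 CPM per kilobase in untreated null, treated null and treated heterozygous lymphomas.

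**Figure D4:**
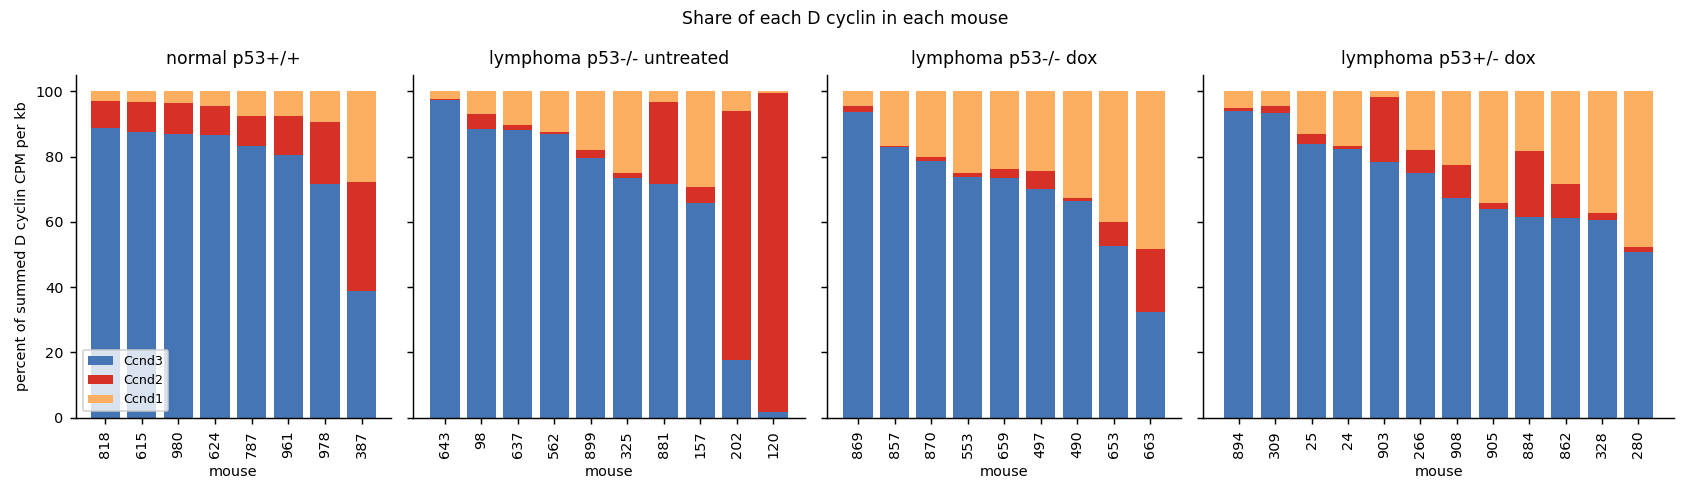
Share of the summed D-type cyclin level (CPM per kilobase of exon) taken by Ccnd1, Ccnd2 and Ccnd3 in every mouse, by group. Ccnd3 leads in all but 3 lymphomas, in which Ccnd2 (2 mice) or Ccnd1 (1 mouse) leads.

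Both kinases that pair with D-type cyclins rose in every lymphoma group. Cdk4 (chromosome 10, 127063534 to 127067920) stood at 103, 176 and 202 CPM in normal thymus (lowest, median, highest), and at 243, 290 and 451 CPM in untreated null, 179, 270 and 468 CPM in treated null and 154, 339 and 563 CPM in treated heterozygous lymphomas. In 28 of 31 lymphomas it was above every normal thymus. The log2 fold changes were 0.83, 0.63 and 0.95 in that order (SE 0.21, 0.20 and 0.20, adjusted p = 0.00174, 0.00952 and 0.000174, edgeR). Cdk6 (chromosome 5, 3341485 to 3531008) stood at 38.6, 73.4 and 93.3 CPM in normal thymus, and at 83.3, 134 and 455 CPM, 74, 130 and 351 CPM and 78.3, 158 and 483 CPM in the same lymphoma groups. In 26 of 31 lymphomas it exceeded every normal thymus. Its log2 fold changes were 1.33, 1.0 and 1.37 (SE 0.37, 0.36 and 0.36, adjusted p = 0.00374, 0.0189 and 0.00176, edgeR), the middle one 0.81 with an adjusted p of 0.0509 without mouse 490. Over single-biopsy tumours Cdk6 in treated heterozygous lymphomas was 0.78 (adjusted p = 0.0400, edgeR).

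5 lymphomas had Cdk6 above 300 CPM, namely mice 490, 884, 862, 899 and 903 at 351, 374, 455, 455 and 483 CPM. They came from all 3 groups and stood apart from the other 26, whose highest value was 242 CPM. Cdk6 was 2.42, 2.51, 2.80, 2.80 and 2.88 above the normal mean on the log2 scale in these mice, in that order, beside a median of 1.31, 0.47, 0.31, 0.83 and 0.79 over its 14 neighbours within 1 Mb. The ratio of Cdk6 to Cdk4 per kilobase had a median of 0.0886 in normal thymus (range 0.0858 to 0.124), and 0.117, 0.126 and 0.136 in untreated null, treated null and treated heterozygous lymphomas. Cdk4 was thus the more abundant per kilobase of exon in every mouse of these groups.

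The E-type cyclins and their kinase rose in every lymphoma group. Ccne1 (chromosome 7, 38097984 to 38107534) was at 6.59, 14.1 and 20.7 CPM in normal thymus (lowest, median, highest) and at 4.93, 33.2 and 46.6 CPM in untreated null, 23.6, 35.6 and 110 CPM in treated null and 23.5, 46.3 and 135 CPM in treated heterozygous lymphomas. All 21 treated lymphomas were above every normal thymus, and so were 8 of 10 untreated ones, while mouse 157 at 4.93 CPM was below every normal thymus. The log2 fold changes were 1.20, 1.45 and 1.76 (SE 0.36, 0.37 and 0.37, adjusted p = 0.00678, 0.00131 and 0.000135, edgeR). Ccne2 (chromosome 4, 11191351 to 11204779) was at 4.43, 19.4 and 34.6 CPM in normal thymus and at 13.8, 44.8 and 82.7 CPM, 36.7, 76.9 and 103 CPM and 31.1, 62.4 and 183 CPM in the lymphoma groups. In 27 of 31 lymphomas it exceeded the normal range. Its log2 fold changes were 1.09, 1.77 and 1.70 (SE 0.35, 0.36 and 0.35, adjusted p = 0.0128, 0.000108 and 0.000118, edgeR). In untreated null lymphomas the Ccne1 call was lost over single-biopsy tumours (0.91, adjusted p = 0.0687, edgeR) and the Ccne2 call when only that group and normal thymus were fitted (1.05, adjusted p = 0.0672, edgeR).

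Cdk2 (chromosome 10, 128697939 to 128705031) varied least among lymphomas. Its level was 39.9, 87.5 and 108 CPM in normal thymus, 103, 154 and 219 CPM in untreated null, 126, 160 and 237 CPM in treated null and 105, 159 and 222 CPM in treated heterozygous lymphomas. In 29 of 31 lymphomas it was above every normal thymus. The log2 fold changes were 0.88, 0.86 and 0.87 (SE 0.18, 0.18 and 0.17, adjusted p = 0.000170, 0.000134 and 8.25e-05, edgeR). Its standard deviation over the 31 lymphomas was 0.31 on the log2 scale, and 6.24% of 14991 genes had a smaller one.

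Of the E2F factors, E2f1 rose and E2f2 did not pass the test. E2f1, an activator E2F (chromosome 2, 154559407 to 154569892), was at 6.21, 16.3 and 23.3 CPM in normal thymus (lowest, median, highest), and at 20.1, 45 and 92.8 CPM in untreated null, 25.0, 41.2 and 43.1 CPM in treated null and 31.3, 39.6 and 65.3 CPM in treated heterozygous lymphomas. In 30 of 31 lymphomas it exceeded the normal range, the exception being mouse 881 at 20.1 CPM. The log2 fold changes were 1.48, 1.13 and 1.36 (SE 0.25, 0.24 and 0.24, adjusted p = 1.13e-05, 0.000173 and 1.26e-05, edgeR). E2f2, also an activator E2F (chromosome 4, 136172394 to 136196057), was at 47.8, 198 and 245 CPM in normal thymus and at 56.4, 146 and 259 CPM, 50.2, 198 and 228 CPM and 78.3, 182 and 353 CPM in the lymphoma groups. Its log2 fold changes were -0.32, -0.13 and 0.04 (SE 0.33, 0.33 and 0.32, adjusted p = 0.454, 0.767 and 0.929, edgeR). Per kilobase, E2f2 exceeded E2f1 by a median ratio of 7.19 in normal thymus (range 3.21 to 8.68), and by 1.90, 3.04 and 2.91 in untreated null, treated null and treated heterozygous lymphomas.

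The single p53+/- normal thymus resembled the other normal tissues in level, with Ccnd2 at 79.8 CPM, Cdk4 at 160 CPM, Cdk6 at 81.9 CPM, Ccne1 at 13.9 CPM, Ccne2 at 20.3 CPM and Cdk2 at 86.3 CPM. Each of these lay inside the range of the p53+/+ normal thymuses. Its fat genes summed to 97.6 CPM, inside the range of the lymphomas. By median CPM per kilobase of exon in normal thymus, the order was Ccnd3 (58), Cdk4 (54.3), E2f2 (40.7), Cdk2 (14.1), Ccnd2 (7.83), Ccne2 (5.56), Ccne1 (5.30), Cdk6 (5.25), E2f1 (5.17) and Ccnd1 (4.28). The ranges over the 8 mice overlapped for each pair of neighbours in this order.

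Promoter sequences are shown for Cdk2 and Cdk4, kinases that rose in all lymphoma groups and whose windows hold the motifs searched. RefSeq (build GRCm38.p6) gave windows of 250 bases before the start for 7 of the 10 genes, 9 windows in all. The start is RefSeq's, and the windows of E2f1 and Cdk6 and 1 of the windows each of Ccnd3 and E2f2 lie inside the extent of the gene in the GENCODE annotation. Ccnd1, Ccnd2 and Ccne2 had no entry. The E2F-like letters TTTCGCGC, TTTGGCGC, TTTCCCGC and TTTGCCGC and the E-box CACGTG, the core bound by MYC and related factors, were searched on both strands, the E-box after the sequences had been seen. Capitals mark the matches, and each window is read 5′ to 3′ on the strand of its gene, Cdk2 from chr10:128705052-128705301 (minus strand) and Cdk4 from chr10:127063285-127063534 (plus strand).
Cdk2: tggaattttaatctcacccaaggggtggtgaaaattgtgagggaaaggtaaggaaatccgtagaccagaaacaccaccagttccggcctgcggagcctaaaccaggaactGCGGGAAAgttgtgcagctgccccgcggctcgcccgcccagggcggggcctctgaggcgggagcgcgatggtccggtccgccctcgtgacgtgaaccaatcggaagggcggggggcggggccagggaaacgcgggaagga
Cdk4: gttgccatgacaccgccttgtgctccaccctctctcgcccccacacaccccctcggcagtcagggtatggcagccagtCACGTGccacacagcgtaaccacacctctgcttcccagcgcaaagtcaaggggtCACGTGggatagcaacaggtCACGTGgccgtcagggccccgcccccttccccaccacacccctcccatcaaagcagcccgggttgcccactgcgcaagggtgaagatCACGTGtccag
The Cdk2 window holds TTTCCCGC on the opposite strand, printed as GCGGGAAA, from 140 to 133 bases before the start. One or more of the 4 E2F-like motifs stood in 611 of 32851 promoters (1.86%). The Cdk4 window holds CACGTG 4 times, and at least 4 copies stood in 7 of 32851 promoters. A Cdk6 window holds it once, as did 6.02% of promoters at least once. In 6 of the 9 windows no motif was found. These matches describe letters and were not tested against the levels.

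Around these 10 genes, the targets of E2F that copy DNA rose as a group. Counts of called genes in the lists that follow stand beside 40.7%, 52.1% and 50.9% of all genes called in either direction in untreated null, treated null and treated heterozygous lymphomas. Of 18 S-phase target genes, 18 were higher in each lymphoma group by edgeR, with median log2 fold changes of 1.42, 1.63 and 1.62 in untreated null, treated null and treated heterozygous lymphomas. Mcm6, a subunit of the replicative helicase, rose by 2.19, 2.16 and 2.21 on the log2 scale (SE 0.26, 0.25 and 0.25, adjusted p = 2.47e-08, 1.21e-08 and 4.1e-09, edgeR), and Cdc6, which loads that helicase, by 1.87, 2.05 and 1.97. With library totals alone as the scaling, 16 of 18 were higher in untreated null lymphomas. Of 7 mitosis and proliferation genes, 6 were higher in each group, among them Ccnb1, the mitotic cyclin B1, by 1.48, 1.96 and 1.76. The exception was Mki67, a proliferation marker, with log2 fold changes of 0.40, 0.30 and 0.53 (adjusted p = 0.228, 0.350 and 0.0834, edgeR).

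Of 13 retinoblastoma-family proteins and E2F partners, 8, 7 and 8 were higher and 0, 2 and 2 lower in the 3 groups. With library totals alone, 4 were higher and 2 lower in untreated null lymphomas. E2f3, an activator E2F, rose by 1.56, 1.57 and 1.54, and Tfdp1, the dimer partner of E2F factors, by 1.38, 1.55 and 1.38 on the log2 scale. Rbl2, which encodes the pocket protein p130, fell by 1.13 in treated null and by 0.99 in treated heterozygous lymphomas, with -0.54 (adjusted p = 0.105, edgeR) in untreated ones. Of 7 inhibitors of these kinases, 1, 1 and 2 were higher and 3, 2 and 2 lower, a share called near that of all genes. Cdkn2a, which encodes p16INK4a and p19ARF, rose by 6.89, 7.03 and 6.98 (SE 0.53, 0.51 and 0.51), Cdkn1a, a p53 target that encodes p21, fell by 1.75, 1.96 and 1.30, and Cdkn1b, which encodes p27, fell by 1.21, 1.54 and 1.11. Of 4 kinase activators, 2, 3 and 3 were higher, led by the phosphatase gene Cdc25a at 1.23, 1.5 and 1.29. Of 5 upstream genes, 2 were higher in each group, Myc, a transcription factor of growth, at 2.29, 2.16 and 2.06, and Notch1, a receptor often active in T-cell leukaemia, at 2.68, 3.17 and 3.13. Mycn fell by 3.72 in treated null lymphomas.

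Between the lymphoma groups, 0 of the 10 genes and 0 of 16389 genes tested (0%) were called by edgeR at an adjusted p under 0.05. At an unadjusted p under 0.05 the numbers of genes were 1917 for treated against untreated null, 864 for treated heterozygous against treated null and 1037 for treated heterozygous against untreated null. DESeq2 called 79, 21 and 7 genes and limma voom 39, 1 and 1. The smallest unadjusted p-values among the 10 genes were those of Ccnd1 and Ccnd2 between treated and untreated null lymphomas. Ccnd1 differed by 1.66 on the log2 scale (95% interval 0.54 to 2.77, adjusted p = 0.290, edgeR), higher in the treated mice, and as a difference of mean log2 CPM by 1.54 (exact permutation p = 0.00915, unadjusted). The mean log2 CPM of Ccne2 was also higher in the treated mice, by 0.87 (exact permutation p = 0.0112, unadjusted). By edgeR that difference of Ccne2 was 0.59 (adjusted p = 0.477). In treated heterozygous against untreated null lymphomas it was higher by 0.72 for Ccne2 (permutation p = 0.0328, unadjusted) and by 0.86 for Ccne1 (permutation p = 0.0260, unadjusted). Between treated and untreated null lymphomas Ccnd2 differed by -4.52 (95% interval -7.48 to -1.55, adjusted p = 0.290, edgeR), and by -1.80 without mouse 120. As a difference of mean log2 CPM it was -1.14 (exact permutation p = 0.439, unadjusted), and with voom -1.09. Against untreated null lymphomas, Ccnd2 in treated heterozygous lymphomas differed by -4.11 (adjusted p = 0.776, edgeR), and by -1.45 without mouse 120. This difference was -0.95 in mean log2 CPM (permutation p = 0.456, unadjusted), -0.55 with voom and -5.60 over single-biopsy tumours. The interval of the difference was narrowest for Cdk2, from -0.39 to 0.24 for treated against untreated null and from -0.30 to 0.27 for treated heterozygous against treated null lymphomas. By label, 9 of 10 untreated null, 4 of 9 treated null and 3 of 12 treated heterozygous mice were male. Sex was a term of the fit, whereas the permutations left it out.

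Biopsies of a tumour differed most in Ccnd1 and Ccnd2, and least in Cdk2 and Ccnd3 by median fold. Over 54 biopsies of 13 tumours, the fold between the highest and the lowest biopsy of a tumour had a median of 1.22 for Cdk2, 1.24 for Ccnd3, 1.28 for E2f1, 1.33 for E2f2, 1.39 for Ccne1, 1.47 for Cdk4, 1.55 for Cdk6 and 1.65 for Ccne2. It exceeded 2-fold in 0 of 13 tumours for Cdk2, Ccnd3 and Cdk4. The median fold was 2.20 for Ccnd2 and 2.07 for Ccnd1, and for each 7 of 13 tumours exceeded 2-fold. The numbers over 2-fold were 4 for Ccne2, 3 for Cdk6 and 1 each for Ccne1, E2f1 and E2f2. As a share of the variance of log2 CPM among biopsies, the part between tumours was 91.3% for Ccnd3, 87.0% for Ccnd2, 86.9% for Ccne1, 85.5% for E2f2, 80.6% for Ccne2, 76.7% for Cdk6, 76.7% for Cdk2, 72.3% for Ccnd1, 67.6% for E2f1 and 62.9% for Cdk4. The median over 14855 genes was 72.8%. Without mouse 881 the share of E2f1 was 48.2%.

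**Figure D5:**
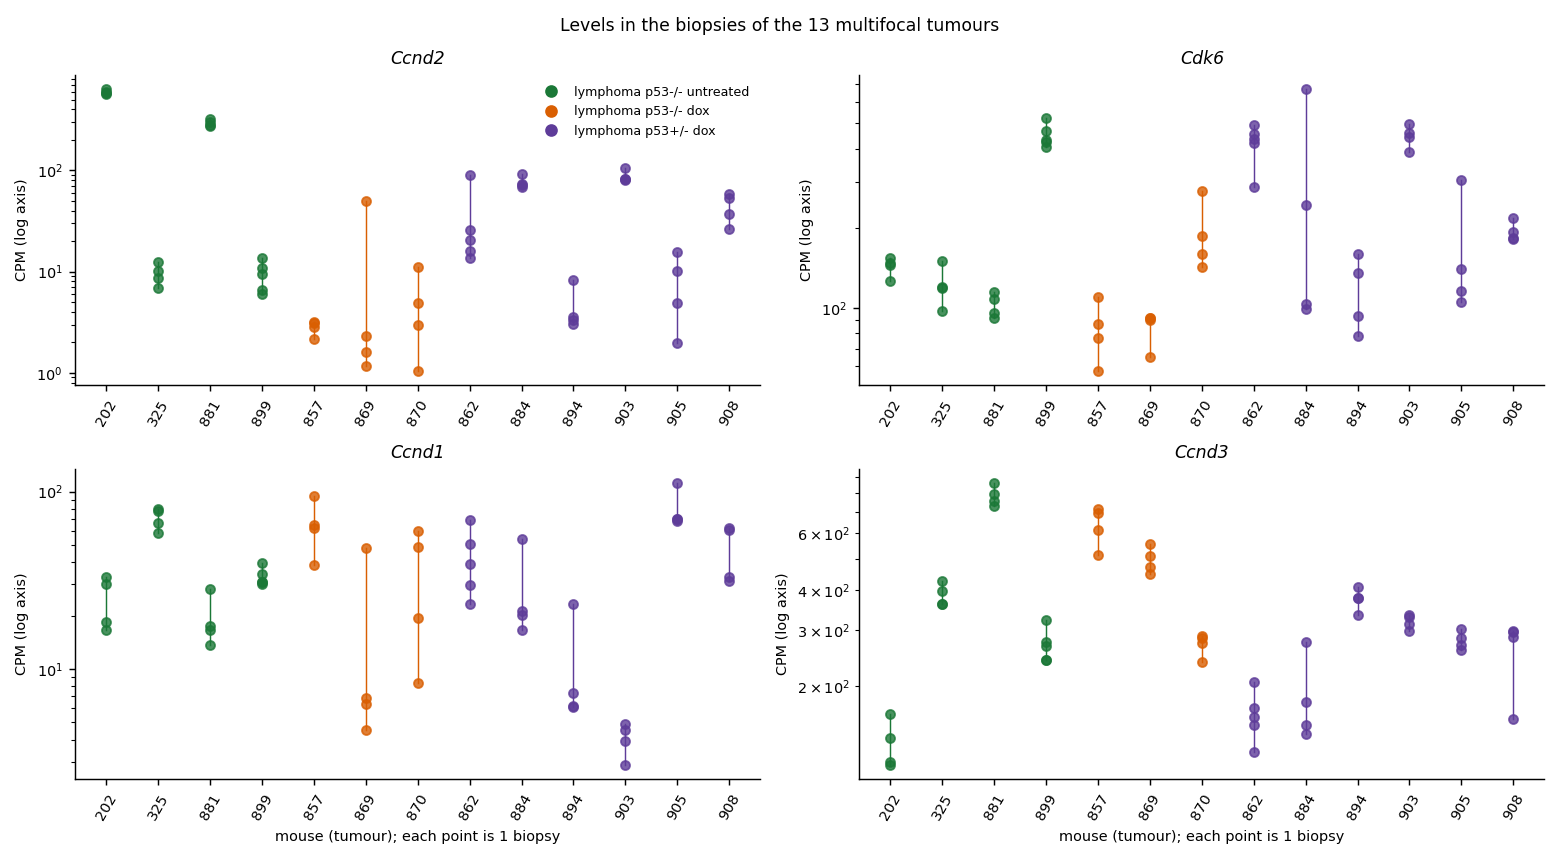
Level of Ccnd2, Cdk6, Ccnd1 and Ccnd3 (CPM, log axis) in every biopsy of the 13 tumours sampled more than once, 1 column per tumour, coloured by group. The biopsies of mouse 869 span 43-fold for Ccnd2, and those of mouse 884 span 6.81-fold for Cdk6, while those of each tumour stay within 2-fold for Ccnd3.

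The widest spread within a tumour was in mouse 869, a treated null animal and, like mouse 870, one whose recorded sex did not match. Its 4 biopsies had Ccnd2 at 1.17, 50.3, 2.33 and 1.59 CPM and Ccnd1 at 6.38, 48, 6.90 and 4.50 CPM, so that biopsy 3 alone was high for both. In the same order the summed thymic epithelium genes were 2.21, 220, 1.78 and 3.70 CPM, B-lineage genes 1.56, 25.5, 1.94 and 1.20 CPM and myeloid genes 304, 816, 550 and 390 CPM, also highest in biopsy 3. Their part in the levels of Ccnd1 and Ccnd2 was not tested. Without that biopsy the share of variance between tumours was 93.1% for Ccnd2 and 80.8% for Ccnd1. In mouse 870, of the same group, Ccnd2 was 2.99, 1.05, 11.2 and 4.85 CPM, beside thymic epithelium sums of 51.7, 7.68, 120 and 55.7 CPM in the same order. Ccne2 in that tumour was 68.4, 209, 51.3 and 71.1 CPM, highest in the biopsy with the lowest Ccnd2.

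In mouse 884, a treated heterozygous animal, the biopsies spread most in Cdk6, at 674, 99, 244 and 103 CPM. The first of these was the highest and the third was between it and the other two. In the same order the median of the neighbours of Cdk6 was 0.37, 0.29, 0.54 and 0.40 above normal on the log2 scale. E2f1 was 96.0, 28.6, 42.9 and 29.3 CPM, and Ccnd1 54, 21.3, 20.2 and 16.6 CPM. In all, 8 of the 10 genes were highest in the biopsy with the highest Cdk6, the exceptions being Ccnd2 and E2f2. The T-lineage sum was highest there as well, at 2415, 1539, 1927 and 1419 CPM, and the fibroblast sum lowest, at 403, 886, 995 and 761 CPM, and their part was not tested. The high Cdk6 of mouse 899, in contrast, was in each of 5 biopsies, at 405, 467, 522, 432 and 425 CPM. The high Ccnd2 of mouse 202 was in each of 4 biopsies, at 599, 581, 568 and 641 CPM, and that of mouse 881 at 275, 319, 280 and 297 CPM. Mouse 120 had 1 biopsy.

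Across the 31 lymphoma mice, 45 pairs of the 10 genes were compared by correlation of log2 CPM, with permutation p-values (100000 draws, two-sided) adjusted over the 14990 other genes set against each member. For Ccne2 and E2f2, which lie on the same chromosome, Pearson's r was 0.66 and Spearman's rho 0.58 (permutation p = 6e-05, adjusted p = 0.00697 among genes set against Ccne2). Within the groups r was 0.62 in untreated null, 0.78 in treated null and 0.62 in treated heterozygous lymphomas. Without the 2 mice farthest from the median it was 0.55 with Ccne2 as the measure and 0.69 with E2f2. For Ccnd2 and Ccne2 r was -0.54 and rho -0.29, and r was -0.19 without the 2 mice with the most extreme Ccnd2, so the relation rests on those. For Ccnd3 and E2f2 r was 0.59 and rho 0.61 (permutation adjusted p = 0.0835 among genes set against Ccnd3 and 0.0297 among those against E2f2). The other 42 pairs had an adjusted p of 0.05 or more in both families.

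Each gene was also set against the median of the other genes of its chromosome, since the study concerns aneuploidy. That median was taken over log2 ratios to the mean of normal thymus, centred on the median of each mouse. Of 14883 genes tested this way 30.7% passed an adjusted p of 0.05, with a median r of 0.29. Of the 10 genes only Ccne2 did, with r 0.51 and rho 0.52 against chromosome 4 (permutation adjusted p = 0.0171), and r 0.28, 0.67 and 0.39 within untreated null, treated null and treated heterozygous lymphomas. The next were Cdk4 with r 0.43 against chromosome 10 (permutation adjusted p = 0.0515) and E2f2 with r 0.41 against chromosome 4 (permutation adjusted p = 0.0662).

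The genes most like each member over the 31 lymphomas are given as a description, by Pearson's r. They were Ccnb1 (0.84), Skp2 (0.81) and Tmed7 (0.80) for Ccne2, Rangap1 (0.82), Tmem33 (0.78) and Dr1 (0.78) for Ccne1, and Fam129c (0.79), Nfkbie (0.75) and Bcl6 (0.69) for Ccnd3. For Ccnd2 they were Ppp3ca (0.74), Pear1 (0.73) and Samd9l (0.71), which were 0.64, 0.43 and 0.41 without the 2 mice of most extreme Ccnd2. For Ccnd1 they were Tctex1d2 (0.68), Dlg4 (0.67) and Klhl22 (0.61). For Cdk4 they were Mbd3, Coq10a and Rtcb (0.73, 0.73 and 0.71), all on chromosome 10 with Cdk4. For E2f2 they were Sec24c, Wapl and Colq (0.83, 0.80 and 0.79), all on chromosome 14. For Cdk6 they were Afg3l2 (0.78), Pacs2 (0.72) and Nomo1 (0.72), for Cdk2 Slc25a3 (0.67), Prkd2 (0.64) and Mdm2 (0.63), and for E2f1 Malsu1 (0.70), Pacs2 (0.67) and Eid1 (0.67). Of the genes named for Ccnd1, Cdk2 and E2f1, none had an adjusted p under 0.05 (permutation), the smallest being 0.150. The mice share library depth and tumour cell content within each point, and no further test was drawn from these lists.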

How the data were processed

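The authors deposited 1 table of RSEM expected counts for 51826 genes and 81 libraries, not scaled between libraries, and 14.25% of its values were not whole numbers. Per the submitters' processing notes, CASAVA 1.8, fastp, STAR 2.7.2b and RSEM 1.1.17 were used with build mm10. Per the labels' protocols, biopsies were taken from snap-frozen tissue and DNA and RNA were extracted together. The strandedness of the counting is not given in the sources used here. Coordinates and exon lengths came from GENCODE M21 on GRCm38, which held 51633 of the gene IDs.

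Expected counts were rounded and the biopsies of a mouse summed. edgeR 4.0.16 (R 4.3.3) used TMM factors, filterByExpr and robust quasi-likelihood fits with labelled sex as a term, in a fit with normal thymus (17843 genes) and another of the lymphomas alone (16389 genes). Each contrast was adjusted by Benjamini-Hochberg, with calls at an adjusted p under 0.05. DESeq2 1.42.0 and limma 3.58.1 (voom on all libraries) were alternatives. CPM used TMM-scaled totals, and log2 CPM a prior count of 2. Standard errors were taken from the fold change and its F statistic. On simulated counts for 17531 genes modelled on untreated null lymphomas against normal thymus, edgeR recovered 99 of 100 genes changed 4-fold and 127 of 200 changed genes in all, with 4 false calls.

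The 10 genes and all gene lists were chosen with earlier results of these data known. From each list, at most the 3 largest rises and 3 largest falls among called genes were to be named per contrast, with all 10 genes named throughout and up to 3 genes most like each. Mki67, Rbl2 in untreated lymphomas and Cdc6 in treated heterozygous lymphomas were named after their values were seen. Other scalings, filters, tools and left-out mice were tried, with their effect given at the end.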

Additional observations from a re-analysis of the deposited data

Results flagged for a closer look

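A single mouse stood far from the rest of its group by Dixon's criterion at the 95% level in 8 of 30 sets of mice (10 genes in 3 groups, since the 12 treated heterozygous mice were too many for this criterion and were not tested), and a single biopsy stood far from the rest of its tumour in 16 of 130 sets of biopsies. That level assumes normally distributed values, which was not tested for CPM, so no chance rate is set beside these counts. In normal thymus mouse 387 was high for Ccnd1 (77.8 CPM) and Ccnd2 (186 CPM). In untreated null lymphomas the mice were 120 for Ccnd2 (6878 CPM), 899 for Cdk6 (455 CPM) and 157 for E2f1 (92.8 CPM), the last also having the lowest Ccne1 of its group. In treated null lymphomas they were 663 for Ccnd2 (120 CPM) and 653 for both Ccne1 (110 CPM) and Cdk2 (237 CPM).

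Among biopsies, 8 of the 16 concerned Ccnd1 or Ccnd2, and each was high. Ccnd1 was 48 CPM in biopsy 3 of mouse 869, 54 CPM in biopsy 2 of mouse 884, 23.2 CPM in biopsy 7 of mouse 894 and 112 CPM in biopsy 7 of mouse 905. Ccnd2 was 50.3 CPM in biopsy 3 of mouse 869, 90.8 CPM in biopsy 9 of mouse 862, 8.35 CPM in biopsy 7 of mouse 894 and 105 CPM in biopsy 5 of mouse 903. In mice 869 and 894 the same biopsy was high for both genes.

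Ccne2 was high in biopsy 5 of mouse 325 (95.9 CPM) and in biopsy 3 of mouse 870 (209 CPM), and the latter was also high for Ccne1 (82.7 CPM). E2f1 was high in biopsy 7 of mouse 905 (47.1 CPM) and in biopsy 7 of mouse 908 (40.7 CPM), and Cdk2 in biopsy 3 of mouse 862 (123 CPM). The low biopsies were Ccnd3 in biopsy 9 of mouse 908 (158 CPM) and Cdk6 in biopsy 5 of mouse 869 (65 CPM).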

How the results depend on the processing

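No fold change past the threshold in the edgeR values of the report changed sign under any of the 13 alternatives tried or on leaving out a mouse. Against normal thymus the number of the 10 genes called stayed at 5 to 7, 6 to 8 and 6 to 8 in untreated null, treated null and treated heterozygous lymphomas, and between lymphoma groups it stayed at 0. With library totals alone the median log2 fold change of all genes moved from 0.08, -0.04 and -0.00 to -0.05, -0.09 and -0.12. The share of calls that were higher was 56.9%, 48.8% and 50.3%, with library totals 46.6%, 46.1% and 43.6%, with voom 44.1%, 44.7% and 43.5%, and without mouse 387 64.3%, 57.2% and 60%.

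Ccnd2 in untreated null lymphomas passed the threshold with DESeq2 (2.74, adjusted p = 0.0181) and with edgeR without sex (3.10, adjusted p = 0.0264) or without mouse 663 (3.10, adjusted p = 0.0456), but was -1.42 with voom. With voom Ccnd2 passed in treated null (-2.85, adjusted p = 0.0129) and treated heterozygous lymphomas (-2.30, adjusted p = 0.0157), and Ccnd3 in untreated ones (-0.74, adjusted p = 0.0259). Over single-biopsy tumours Ccnd3 in treated heterozygous lymphomas was -0.68 (adjusted p = 0.138, edgeR) and Cdk6 was 0.78 in place of 1.37. The causes were not tested.

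Other log2 differences that missed the threshold changed sign under 1 or more alternatives. Against normal thymus these were Ccnd1 at -0.12 with voom in untreated null, and E2f2 in treated heterozygous lymphomas at -0.11 with library totals and -0.01 without mouse 387. For treated against untreated null, Cdk2 was 0.00 with library totals and 0.07 over single-biopsy tumours, where Cdk6 was 0.01. For treated heterozygous against treated null, Cdk2 was 0.00 without the low-count filter, 0.01 without sex and 0.01 with 1 biopsy per mouse, Ccnd2 was -0.00 without sex, and over single-biopsy tumours Ccnd2 was -1.24, Cdk6 -0.44 and Ccne1 -0.22. For treated heterozygous against untreated null, Cdk6 was 0.25 without sex, 0.04 with only those groups and 0.02 with voom, Cdk2 was 0.01 without sex and 0.02 over single-biopsy tumours, and Cdk4 was -0.15 with only those groups and -0.02 over single-biopsy tumours.

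Leaving out each mouse gave ranges across 0 for Ccnd1 in untreated null (-0.15 to 0.60) and E2f2 in treated null (-0.23 to 0.04) and treated heterozygous lymphomas (-0.06 to 0.16) against normal thymus. For treated against untreated null they were -0.11 to 0.03 for Cdk2 and -0.05 to 0.15 for Ccne1, for treated heterozygous against treated null -0.06 to 0.06 for Cdk2, and for treated heterozygous against untreated null -0.43 to 0.12 for Cdk6 and -0.14 to 0.03 for Cdk2. No paired analysis was possible because mice of different groups share no number or other pairing. Depth limits biopsies 5 and 9 of mouse 857 most, at 1.03 and 1.71 M counts.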
